A study of Homo sapiens with 12 samples.

Results

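Intronless protein-coding genes are genes whose coding sequence lies in 1 exon and whose transcripts are not spliced, or seldom are. A set of 38 such genes was followed through RNA sequencing of MDA-MB-231, a human breast cancer line of the triple-negative type. The members were given as a list of gene symbols, drawn up from gene structure with measured levels of these libraries in view, and all 38 were found among the 64252 gene IDs counted. Since the levels across the 4 groups may have taken part in that choice, the members' levels, changes and calls are descriptions of these libraries and no p-value is given for a member. Each group held 3 libraries of cells transfected by lipofection with a plasmid for Dicer, the ribonuclease that cuts microRNA precursors. The plasmid carried Dicer with mutation 1, Dicer with mutation 2, Dicer with mutation 3 or wild-type Dicer, and the labels do not say which residues the numbered mutations change. Untransfected cells and an empty plasmid were not analysed here, and the cells of all groups were taken to keep their own DICER1 gene. The wild-type libraries carry genotype labels numbered 1 to 3 under the same treatment label, whereas the libraries of a mutant share 1 genotype label, and the wild-type libraries were taken as replicates of 1 group. Whether the 3 libraries of a group are separate cultures is not given in the labels, so every measure of spread describes these samples and may be technical.

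Most human mRNAs are spliced, and splicing leaves exon junction complexes on the transcript that help its export and take part in its surveillance. Transcripts that are not spliced carry no such complexes, and their export does not depend on them. Many intronless genes are early response genes, G protein-coupled or Frizzled receptors, or copies of spliced genes made by reverse transcription.

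In GENCODE v29, on hg38, 31 of the 38 members had no spliced transcript. A further 6 (IER2, FOXD1, PURA, TAF7, CHMP1B and ZNF830) had their coding sequence in 1 exon and some spliced transcript, and CHST14 had a coding transcript with several coding exons, so the label fits 37 members. Of the 38, 35 passed the filter on low counts, among 15094 genes. CEBPA had 1, 6, 0 and 20 counts in all with mutation 1, mutation 2, mutation 3 and wild type, and its 20 wild-type counts were in replicates 2 and 3 alone. FOXD1 had 1 count in the 12 libraries and LENG9 had 0, where 3 counts in a library would stand for 0.168 to 0.239 CPM. Levels are CPM, counts scaled to the library's size after trimmed-mean (TMM) normalization. Per kilobase of exon, the tested members in wild-type cells ran from 0.534 (FZD8) to 98.0 CPM (SF3B5), with a median of 10.2.

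Library totals ran from 13507341 to 17078273 counts. Wild-type replicate 1 stood apart from wild-type replicates 2 and 3. The squared differences of its counts from theirs were 148 and 141 times sampling noise, against 1.26 between replicates 2 and 3 and 1.3 to 3.51 within the mutant groups. Mitochondrial mRNAs took 1.27 to 1.36% of counts with mutation 1, 4.48 to 5.57% with mutation 2 and 4.81 to 5.05% with mutation 3, against 1.34% in wild-type replicate 1 and 5.04 and 5.09% in replicates 2 and 3. MALAT1, a nuclear-retained RNA, was at 2330 to 2450 CPM with mutation 1, 805 to 866 with mutation 2, 3110 to 3180 with mutation 3 and 442 to 870 in wild type. DICER1 averaged 43.7 ± 1.52, 45.3 ± 0.731 and 39.4 ± 0.638 CPM with mutations 1, 2 and 3 and 40.0 ± 11 CPM in wild type (SD, n = 3 each), and none of the 3 mutations differed from wild type by the test (edgeR adjusted p = 0.493, 0.406 and 0.916). Against wild-type replicate 1 alone DICER1 was called higher with mutations 1, 2 and 3, by 0.66, 0.72 and 0.52 on the log2 scale, and without that replicate it was called lower with mutation 3 alone (-0.23). The counts do not separate plasmid from endogenous transcripts. MUC5AC, a secreted mucin, was at 0 to 0.338 CPM in the mutant libraries, against 8.47 CPM in wild-type replicate 1 and 1010 and 1000 CPM in replicates 2 and 3. All 10 markers of mesenchymal lines such as MDA-MB-231 were measured, and their sum was 7470 to 7610 CPM with mutation 1, 6090 to 6180 with mutation 2, 6510 to 6530 with mutation 3 and 5890 to 7110 in wild type. Of 14 luminal breast markers 11 passed the filter, and their sum was 1580 to 1640, 1260 to 1320 and 1470 to 1500 CPM with mutations 1, 2 and 3 and 1010 to 1960 in wild type. Of 12 markers of other cell types, 3 passed the filter, the sum was 57.7 to 62.7, 18.9 to 25.2, 25.6 to 30.0 and 36.4 to 45.6 CPM in the same order, and CD3E and DCN were at 0 in all 4 groups.

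With mutation 1, most of the intronless genes were lower than with wild-type Dicer, and RIOX1, MOCS3 and RRS1, which act in ribosome assembly or tRNA modification, were among the largest decreases. Of the 35 tested members, 8 were called higher, 21 lower and 6 neither, at an adjusted p under 0.05 in the edgeR fit of all genes. That is 82.9% of members, beside 69.0% of all genes tested called in this comparison (32.5% higher and 36.5% lower). The members' median log2 fold change was -0.88, beside -0.04 over all genes tested. In 28 of the 35 members the 3 libraries of mutation 1 did not overlap the 3 of wild type, beside 68.0% of all genes tested. Without wild-type replicate 1, all 29 calls were kept and 5 were added (82.7% of all genes called). Against wild-type replicate 1 alone, which the fit assumes to vary like the libraries of the other groups, 26 of the 29 were kept, PURB, ZXDA and FEM1A were lost and 6 were added (70.9% of all genes called). Both of these fits were chosen with the libraries' differences known.

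With mutation 2 fewer members were called: 3 higher (SOWAHC, PURB and SF3B5), 10 lower and 22 neither. The share called was 37.1%, beside 37.0% of all genes tested (16.9% higher and 20.1% lower), and the median log2 fold change was -0.11, beside -0.01. The libraries did not overlap for 12 members, beside 42.6% of all genes. Without wild-type replicate 1 all 13 calls were kept and 14 were added (67.9% of all genes called). Against replicate 1 alone 8 were kept (50.9% of all genes called), and the calls of FZD1, RIOX1, THAP11, SF3B5 and ATXN7L3B were lost.

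With mutation 3, 10 members were called higher, 16 lower and 9 neither (74.3%, beside 59.3% of all genes tested, 28.1% higher and 31.2% lower), with a median log2 fold change of -0.18, beside -0.01. The libraries of 26 members did not overlap, beside 61.0% of all genes. Without wild-type replicate 1, the 26 calls were kept and 5 were added (77.1% of all genes called). Against replicate 1 alone 22 were kept (66.5% of all genes called), and those of PURB, SF3B5, ATXN7L3B and SOWAHC were lost. Leaving out 1 mutation 3 library left 5 or 6 members called higher in place of 10. The 3 comparisons share the wild-type libraries. Side by side, FOXQ1, FZD1, FZD2, RIOX1, THAP11, IRF2BPL and ATXN7L3B were called lower with every mutation, and PURB higher with every mutation. IER5 and TAF7 were called with none, although both were called with all 3 when wild-type replicate 1 was left out. The share of all genes called alike in the 3 comparisons was not worked out, so no background stands beside these members.

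Between mutants the wild-type libraries enter only the estimate of spread. Mutation 1 had 9 members higher and 21 lower than mutation 2, beside 65.4% of all genes called (31.8% higher and 33.6% lower), and a median log2 fold change of -0.81. The libraries did not overlap for 33 members, beside 81.6% of all genes. Mutation 1 had 4 members higher and 14 lower than mutation 3, beside 42.8% of all genes called (20.2% higher and 22.5% lower), with a median of -0.29 and 26 members without overlap, beside 69.8% of all genes. Mutation 2 had 14 members higher and 9 lower than mutation 3, beside 52.9% of all genes called (27.2% higher and 25.7% lower), with a median of 0.14 and 29 members without overlap, beside 75.9% of all genes. A difference among the 4 groups was called for 34 of 35 members, beside 83.0% of all genes tested. Because these are bulk samples, fewer cells with a transcript and less of it in each cell cannot be told apart.

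**Figure D1:**
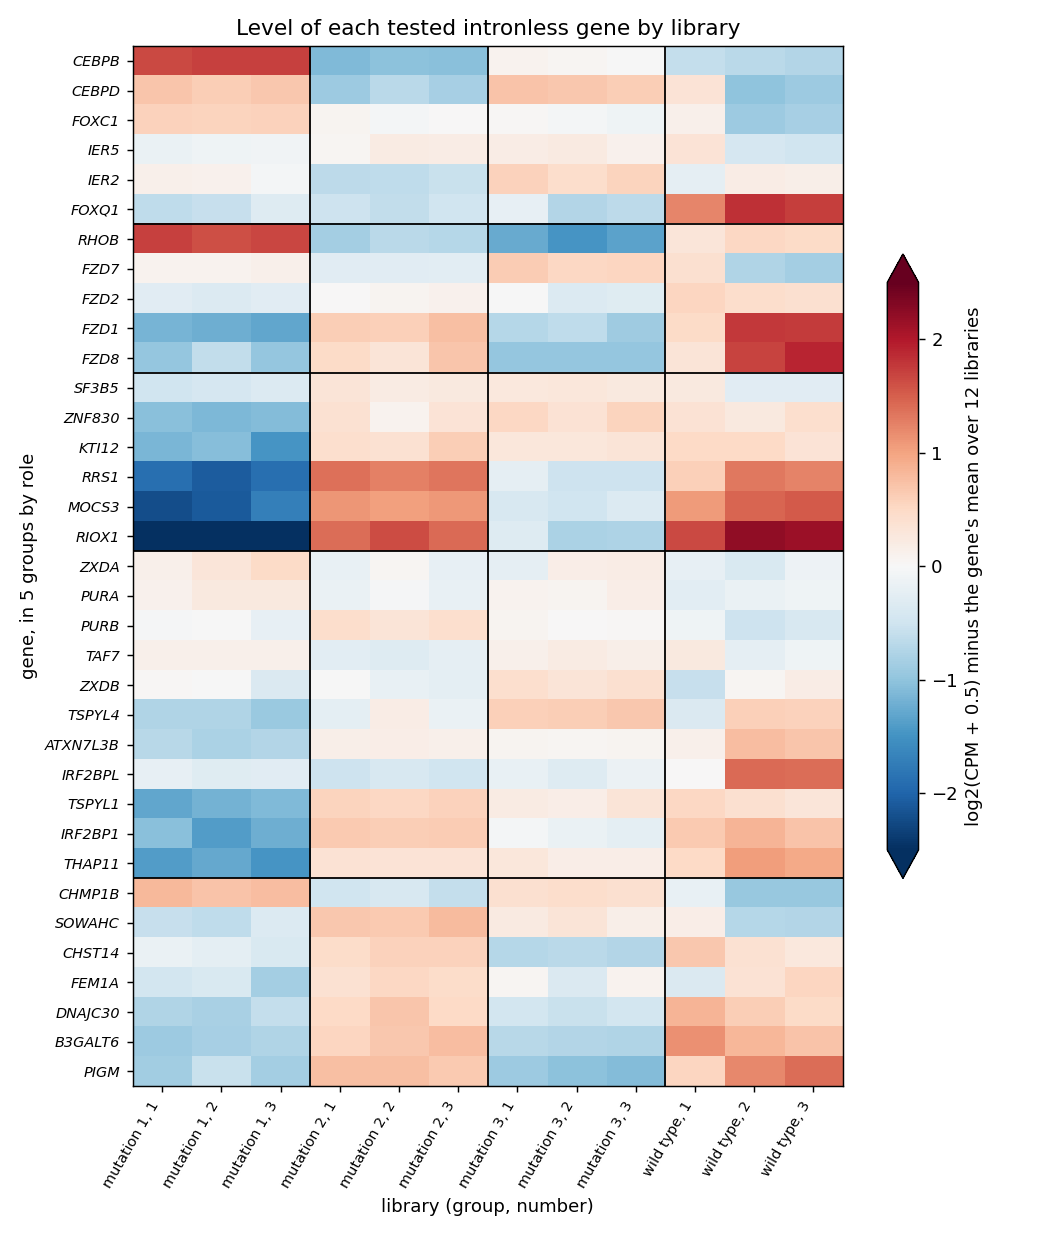
Levels of the 35 tested intronless genes (rows, grouped by role and, within a role, from the highest to the lowest change with mutation 1) in the 12 libraries (columns), as log2(CPM + 0.5) minus each gene's mean, with a colour scale that ends at 2.5 either way. RIOX1, MOCS3 and RRS1 are lowest in the 3 mutation 1 libraries, CEBPB and RHOB are highest there, and wild-type replicate 1 differs from replicates 2 and 3 for FZD7, FZD1, IRF2BPL and CHMP1B.

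The start regions of 6 members are shown because they had the 3 largest decreases and the 3 largest increases with mutation 1, among members that have a window in the RefSeq promoter table and reached 5 CPM on average in mutation 1 or wild type. Each window runs 5′ to 3′ on the gene's strand, from 250 bases before the RefSeq start to 50 after it, on GRCh38.p14, and RefSeq starts can differ from those of GENCODE. All 6 genes lie on the plus strand: MOCS3 (chr20:50958568-50958867), FZD1 (chr7:91264183-91264482), THAP11 (chr16:67842070-67842369), CEBPB (chr20:50190333-50190632), CHMP1B (chr18:11851163-11851462) and RHOB (chr2:20446824-20447123). Capitals mark matches on either strand to the TATA box TATAAA, the CCAAT box CCAAT and the cAMP response half-site TGACG.
MOCS3: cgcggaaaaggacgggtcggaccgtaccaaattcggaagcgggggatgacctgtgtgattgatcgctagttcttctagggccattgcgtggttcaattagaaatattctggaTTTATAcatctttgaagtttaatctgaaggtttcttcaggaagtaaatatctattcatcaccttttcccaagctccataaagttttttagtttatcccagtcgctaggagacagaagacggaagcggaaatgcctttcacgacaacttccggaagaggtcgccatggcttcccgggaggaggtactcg
FZD1: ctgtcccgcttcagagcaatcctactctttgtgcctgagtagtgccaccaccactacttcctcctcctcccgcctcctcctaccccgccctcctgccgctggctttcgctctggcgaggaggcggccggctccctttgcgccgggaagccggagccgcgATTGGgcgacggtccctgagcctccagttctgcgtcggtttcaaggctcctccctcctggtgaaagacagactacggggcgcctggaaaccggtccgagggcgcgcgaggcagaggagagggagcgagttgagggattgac
THAP11: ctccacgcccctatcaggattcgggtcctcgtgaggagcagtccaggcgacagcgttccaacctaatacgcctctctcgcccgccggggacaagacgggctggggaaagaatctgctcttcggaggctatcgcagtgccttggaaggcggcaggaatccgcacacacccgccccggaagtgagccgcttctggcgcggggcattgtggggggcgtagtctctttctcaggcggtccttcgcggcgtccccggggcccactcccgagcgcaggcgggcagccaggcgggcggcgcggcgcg
CEBPB: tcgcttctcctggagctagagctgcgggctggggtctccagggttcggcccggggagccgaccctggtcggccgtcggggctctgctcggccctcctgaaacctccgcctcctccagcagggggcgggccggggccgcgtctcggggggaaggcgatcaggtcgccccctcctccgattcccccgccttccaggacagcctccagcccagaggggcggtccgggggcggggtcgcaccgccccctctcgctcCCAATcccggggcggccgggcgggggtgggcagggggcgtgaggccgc
CHMP1B: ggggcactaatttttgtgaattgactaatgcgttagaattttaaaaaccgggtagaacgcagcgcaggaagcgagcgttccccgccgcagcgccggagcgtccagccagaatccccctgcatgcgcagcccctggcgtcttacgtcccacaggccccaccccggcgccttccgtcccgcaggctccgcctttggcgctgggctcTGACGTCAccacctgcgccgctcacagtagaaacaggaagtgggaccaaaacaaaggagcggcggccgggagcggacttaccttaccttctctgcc
RHOB: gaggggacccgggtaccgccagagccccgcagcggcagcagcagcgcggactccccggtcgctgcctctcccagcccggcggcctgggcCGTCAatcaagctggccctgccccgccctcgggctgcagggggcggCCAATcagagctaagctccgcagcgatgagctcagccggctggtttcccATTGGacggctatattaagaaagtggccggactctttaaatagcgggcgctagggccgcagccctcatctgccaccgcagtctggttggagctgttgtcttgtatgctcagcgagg
Among the genes that were lower with mutation 1, MOCS3 had an inverted TATAAA 138 bases before its start, FZD1 an inverted CCAAT 91 bases before its start and THAP11 none of the 3 motifs. Among those that were higher, RHOB had a CCAAT on each strand and an inverted TGACG, and CEBPB a CCAAT just after its start. CHMP1B had the full cAMP response element TGACGTCA, 46 bases before its start, made of half-sites on both strands that overlap. Over the 31 members with a window, TATAAA was found in 9.68% (11.5% of 35116 windows of RefSeq genes of all kinds), CCAAT in 45.2% (34.6%), TGACG in 41.9% (24.6%) and TGACGTCA in 9.68% (1.85%, in PURB, CHMP1B and IRF2BPL here). The GC box GGGCGG was in 83.9% (45%), and the windows' median GC content was 65.7%, beside 58.7% over all windows. Less frequent in members were the E box CANNTG, in 41.9% (68.7%), and the AP-1 site TGANTCA, in 6.45% (7.71%). The CArG box and the TCF/LEF site CTTTGAT were in 0% of members' windows (1.29% and 2.62% of all windows). These matches are descriptions of the windows, and whether a factor binds there was not measured.

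Counts by role and by gene list are read against all genes tested, of which 32.5% were called higher and 36.5% lower with mutation 1, 16.9% and 20.1% with mutation 2 and 28.1% and 31.2% with mutation 3. The 6 members that act in ribosome assembly, splicing or tRNA modification were all lower with mutation 1 than with wild type, with a median log2 fold change of -2.54. All 6 were also lower with mutation 1 than with mutation 2 (median -2.66) and with mutation 3 (median -1.69). RIOX1, a hydroxylase of a ribosomal protein (chr14:73490964-73493392, plus strand), had 0.422, 0.47 and 0.319 CPM with mutation 1, 16.6, 19.8 and 16.9 with mutation 2 and 4.69, 3.27 and 3.33 with mutation 3, against 20, 29.7 and 28.3 CPM in wild type. No 2 groups overlapped, and the order was mutation 1, mutation 3, mutation 2, wild type from lowest to highest. Against wild type its log2 fold changes were -5.97 ± 0.25 for mutation 1, -0.55 ± 0.17 for mutation 2 and -2.78 ± 0.19 for mutation 3 (± SE). RIOX1 lies inside HEATR4 on the opposite strand, which had at most 0.582 CPM in any library.

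MOCS3, an enzyme that activates sulfur carriers for molybdenum cofactor synthesis and tRNA thiolation (chr20:50958826-50963931, plus strand), had 0.633, 0.739 and 1.12 CPM with mutation 1, 10.8, 10.3 and 10.7 with mutation 2 and 3.51, 3.27 and 3.7 with mutation 3, against 10.5, 14.0 and 14.9 CPM in wild type. The mutation 1 and mutation 3 libraries lay below all others, and mutation 2 overlapped wild type. Its log2 fold change was -3.99 ± 0.21 with mutation 1 and -1.91 ± 0.17 with mutation 3. RRS1, a ribosome biogenesis factor (chr8:66429028-66430733, plus strand), had 2.53, 2.15 and 2.55 CPM with mutation 1, 28.6, 26.3 and 27.8 with mutation 2 and 9.14, 7.38 and 7.34 with mutation 3, against 16.6, 27.7 and 26.1 CPM in wild type. Mutations 1 and 3 were below every wild-type library, by -3.28 ± 0.2 and -1.56 ± 0.18 on the log2 scale.

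KTI12, known in yeast for its part in modifying tRNA wobble uridines, and ZNF830, a zinc finger protein linked to splicing, were called lower with mutation 1 and with neither of the other mutations. KTI12 had 3.66, 3.89 and 2.79 CPM with mutation 1, 11.7, 11.4 and 13.5 with mutation 2 and 10.6, 10.7 and 11 with mutation 3, against 12.5, 12.5 and 11.1 CPM in wild type (log2 fold change with mutation 1 -1.79 ± 0.13). KTI12's exons share 532 bases (31.0% of KTI12) with TXNDC12 on the same strand, which averaged 64.4 ± 2.28 CPM with mutation 1 and 68.3 ± 6.65 in wild type. ZNF830 averaged 4.78 ± 0.146 CPM with mutation 1 and 13.7 ± 0.944 in wild type (-1.52 ± 0.11), and 13.1 ± 1.44 and 15.1 ± 1.06 with mutations 2 and 3. SF3B5, a small subunit of the SF3B complex that recognises branch points, had 51.1, 53.8 and 56.6 CPM with mutation 1, 90.5, 83.7 and 85.7 with mutation 2 and 86.1, 88.3 and 86.0 with mutation 3, against 85.7, 59.0 and 59.1 CPM in wild type. Its mutation 1 libraries were below all others. Its calls against wild type (log2 fold change -0.34, 0.35 and 0.35 for mutations 1, 2 and 3) changed with wild-type replicate 1. Against that replicate alone mutation 1 differed by -0.69 and mutations 2 and 3 both by 0.01, and without it mutation 1 differed by -0.13. The mutation 2 call was kept in 1 of the 12 fits that each left out 1 library, the one without wild-type replicate 1.

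**Figure D2:**
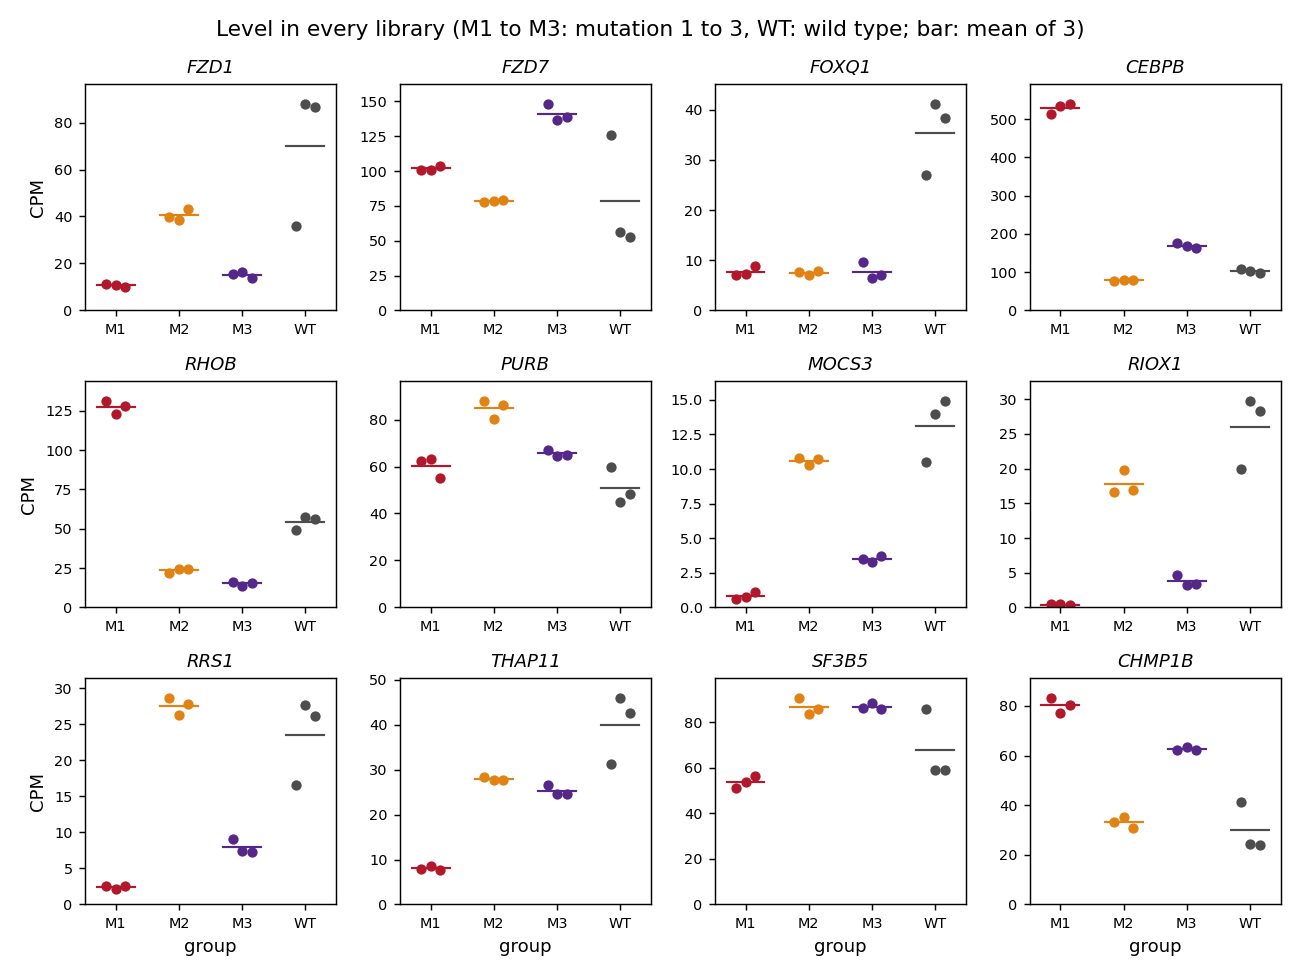
Level of 12 intronless genes in every library, in CPM on linear axes from 0; points are libraries, bars are means of 3, and groups run from mutation 1 (M1) to mutation 3 (M3) and wild type (WT). MOCS3, RIOX1, RRS1 and THAP11 are lowest with mutation 1, CEBPB and RHOB are highest there, and 1 wild-type point, replicate 1, lies apart for FZD1, FZD7, SF3B5 and CHMP1B.

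The Frizzled genes encode receptors for Wnt ligands, and their levels parted. FZD1 (chr7:91264364-91271326, plus strand) had 11.1, 10.7 and 10.1 CPM with mutation 1, 39.6, 38.7 and 43.2 with mutation 2 and 15.3, 16.2 and 13.6 with mutation 3, against 35.8, 87.8 and 86.6 CPM in wild type. Mutations 1 and 3 lay below all wild-type libraries (log2 fold change -2.72 ± 0.28 and -2.22 ± 0.28). Mutation 2 overlapped wild type, and its call (-0.79 ± 0.26) turned to 0.18, past no threshold, against replicate 1 alone. The call for mutation 2 was also lost when any 1 mutation 2 library, or wild-type replicate 2 or 3, was left out. FZD2 was less variable, with 34.0 ± 0.722, 43.8 ± 1.28 and 36.2 ± 4.69 CPM with mutations 1, 2 and 3, against 57.9 ± 3.01 CPM in wild type, and every mutant library was below every wild-type library.

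FZD7 had 101, 101 and 104 CPM with mutation 1, 78.0, 78.3 and 79.4 with mutation 2 and 148, 137 and 139 with mutation 3, against 126, 56.6 and 52.9 CPM in wild type. The mutant groups were each tight and apart from one another, whereas wild-type replicate 1 stood above the mutation 1 and 2 libraries and replicates 2 and 3 below them. The call with mutation 3 (log2 fold change 0.85 ± 0.26) was lost without any 1 mutation 3 library or without wild-type replicate 2 or 3. Without replicate 1 mutations 1 and 2 were also called higher (0.90 and 0.52), and against replicate 1 alone both were called lower (-0.32 and -0.69). FZD8 reached 0.134 CPM in 1 mutation 1 library and 0 in the others and in all of mutation 3, and had 0.845, 0.714 and 1.07 CPM with mutation 2, against 0.722, 2.63 and 3.11 CPM in wild type. It had 2 counts in all with mutation 1, 42 with mutation 2 and 0 with mutation 3, against 106 in wild type. The scaled wild-type level was 45.4 times that of mutation 1 (exact 95% interval 12.3 to 380, counting error only). Taking 3 counts per library as the floor, FZD8 was at least 10.6-fold lower with mutation 3 than the wild-type mean, a limit set by replicates 2 and 3, since replicate 1 had the lowest of the wild-type levels. On the log2 scale the limits for mutations 1 and 3 are -3.62 and -3.41. Both lie below the members' medians of -0.88 and -0.18, so setting FZD8 at them could not move those medians.

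Beyond the intronless Frizzled genes, 9 of 13 other Frizzled receptors and Wnt co-receptors passed the filter. With mutation 1, 1 was called higher and 2 lower, with a median log2 fold change of 0.25. FZD6 had 33.5 ± 0.138 CPM with mutation 1 and 71.5 ± 2.13 in wild type, and FZD4 had 1.57 ± 0.258 and 7.64 ± 1.13 CPM. FZD5 was higher, with 16.6 ± 0.547 CPM with mutation 1 and 9.24 ± 3.25 in wild type. Of 15 Wnt ligands, secretion factors and extracellular inhibitors tested, 4 were called higher and 3 lower. Of 20 Wnt transducers and target genes tested, 8 were called higher and 11 lower with mutation 1, 4 and 4 with mutation 2 and 5 and 10 with mutation 3. LGR4, an R-spondin receptor, had 8.91 ± 0.41 CPM with mutation 1 and 65.5 ± 22 in wild type, while MYC, also an early response gene, had 396 ± 13.7 and 127 ± 2.79 CPM.

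RHOB, a small GTPase of endosomes (chr2:20447074-20449445, plus strand), was called higher with mutation 1 and lower with mutations 2 and 3. It had 131, 123 and 128 CPM with mutation 1, 21.9, 24.7 and 24.1 with mutation 2 and 16.2, 13.9 and 15.5 with mutation 3, against 49.1, 57.3 and 55.9 CPM in wild type. No 2 groups overlapped. The log2 fold change was 1.24 ± 0.08 with mutation 1, -1.2 ± 0.08 with mutation 2 and -1.83 ± 0.08 with mutation 3, and 3.07 ± 0.09 between mutations 1 and 3. Of its spliced relatives, RHOA averaged 803 ± 17.3, 595 ± 13.5 and 744 ± 11.8 CPM with mutations 1, 2 and 3 and 669 ± 97.3 in wild type, and RHOC 134 ± 2.36, 105 ± 2.34 and 131 ± 6.82 CPM and 172 ± 2.27 in wild type.

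Among the transcription factors, 3 of 6 tested were higher and 1 lower with mutation 1. CEBPB, a leucine zipper factor of inflammation and differentiation (chr20:50190734-50192689, plus strand), had 514, 534 and 539 CPM with mutation 1, 76, 80.3 and 78.9 with mutation 2 and 175, 169 and 162 with mutation 3, against 108, 102 and 98.9 CPM in wild type. The 4 groups did not overlap, and all 3 wild-type libraries lay together. The changes were 2.36 ± 0.06, -0.39 ± 0.05 and 0.71 ± 0.05 on the log2 scale. CEBPD, its relative, had 72.3, 68.7 and 71.8 CPM with mutation 1, 23.5, 27.7 and 24.8 with mutation 2 and 73.4, 70.9 and 68.6 with mutation 3, against 56.3, 22 and 23.4 CPM in wild type. Mutations 1 and 3 were above every wild-type library (1.07 ± 0.29 for each), with replicate 1 the nearest. CEBPG, a partner without a transactivation domain, was called lower with all 3 mutations, at 10.6 ± 0.47, 43.3 ± 1.44 and 16.3 ± 0.64 CPM with mutations 1, 2 and 3 and 72.6 ± 25.7 CPM in wild type. The mutation 2 change of CEBPG (-0.75) was 0.0 against wild-type replicate 1 alone. Of 6 C/EBP partners tested, 0 were called higher and 3 lower with mutation 1, 1 and 4 with mutation 2 and 1 and 4 with mutation 3.

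FOXQ1, a forkhead factor of epithelial plasticity (chr6:1312440-1314748, plus strand), was lower with all 3 mutations by close amounts. It had 7.04, 7.32 and 8.86 CPM with mutation 1, 7.74, 7.14 and 7.78 with mutation 2 and 9.7, 6.53 and 6.96 with mutation 3, against 26.9, 41.1 and 38.4 CPM in wild type. All mutant libraries were below all wild-type libraries. The log2 fold changes were -2.2, -2.23 and -2.19 (SE 0.19 each). Between mutants the differences were 0.03, 0 and -0.04 on the log2 scale, each with an SE of 0.19. FOXC1, a forkhead factor of mesenchymal lineages, had 29.5 ± 0.223 CPM with mutation 1 and 14.3 ± 6.3 in wild type, where replicate 1 had 21.5 CPM and replicates 2 and 3 had 10.3 and 10.9. IER2 had 43.9 ± 2.85, 27.3 ± 0.981 and 60.3 ± 3.11 CPM with mutations 1, 2 and 3, against 43.5 ± 6.56 CPM in wild type, and was called lower with mutation 2 and higher with mutation 3. IER5 had 140 ± 4.54, 169 ± 9.79 and 171 ± 7.03 CPM, against 138 ± 46.9 CPM in wild type, where replicate 1 had 192 and replicates 2 and 3 had 114 and 107. Its direction turned with that library: without it the 3 mutants were called higher (0.34, 0.62 and 0.63), and against it alone they were called lower (-0.47, -0.19 and -0.17).

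Of 27 other immediate early genes tested, which are induced by growth factors and stress, 14 were called higher and 6 lower with mutation 1, with a median log2 fold change of 1.17. The counts were 5 and 6 with mutation 2 and 10 and 7 with mutation 3. DUSP1, a phosphatase of MAP kinases, had 253 ± 4.47 CPM with mutation 1 and 12.9 ± 1.84 in wild type, and JUNB, an AP-1 subunit that is itself intronless, had 106 ± 2.12 and 37.3 ± 2.16 CPM. Among 16 other forkhead genes tested, 9 were called higher and 6 lower with mutation 1, with FOXO3 at 89.9 ± 0.988 CPM with mutation 1 and 26.9 ± 3.34 in wild type.

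The 11 transcription cofactors and nuclear proteins had 3 members called higher and 6 lower with mutation 1. THAP11, a zinc finger cofactor of HCFC1 (chr16:67842082-67844195, plus strand), had 7.95, 8.66 and 7.58 CPM with mutation 1, 28.3, 27.7 and 27.8 with mutation 2 and 26.7, 24.7 and 24.5 with mutation 3, against 31.2, 45.9 and 42.6 CPM in wild type. Every mutant library was below every wild-type library, and mutation 1 lay far below the rest (-2.31 ± 0.13). THAP11's exon shares 380 bases (18.0%) with CENPT on the opposite strand, and strand was not used in counting. CENPT averaged 38.6 ± 2.0 CPM with mutation 1 and 49.5 ± 17.6 in wild type and was not called. CENPT's log2 fold change was -0.63 without wild-type replicate 1 and 0.39 against it alone.

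IRF2BP1, a corepressor that binds IRF2, had 15.8, 12.3 and 14.0 CPM with mutation 1, 52.4, 51.5 and 51.7 with mutation 2 and 32.2, 29.8 and 28.1 with mutation 3, against 53.0, 60.4 and 54.5 CPM in wild type. The order of groups was that of RIOX1, without overlap, although mutation 2 was not called (log2 fold change -2.0 ± 0.1 and -0.9 ± 0.09 for mutations 1 and 3). Its relative IRF2BPL had 46.4 ± 1.68, 39.9 ± 1.79 and 48 ± 3.08 CPM with the 3 mutations, against 56.3, 149 and 148 CPM in wild type. All mutants were lower, and the wild-type spread was that of replicate 1 against the others. ATXN7L3B averaged 25.8 ± 0.879, 48.5 ± 0.676 and 45.4 ± 0.0495 CPM, against 64.2 ± 14.5 CPM in wild type, and its call with mutation 2 (-0.4) became 0.02 against wild-type replicate 1 alone.

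TSPYL1 and TSPYL4 are nucleosome assembly protein relatives that lie near each other on the minus strand of chromosome 6. TSPYL1 had 15.8, 17.2 and 18.1 CPM with mutation 1, 58.6, 57.1 and 59.5 with mutation 2 and 45.8, 44.3 and 49.9 with mutation 3, against 57.1, 52.7 and 49.2 CPM in wild type (-1.64 ± 0.08 with mutation 1). TSPYL4 averaged 5.07 ± 0.382, 8.87 ± 1.6 and 14.6 ± 0.447 CPM, against 11.8 ± 4.11 CPM in wild type, and was called lower with mutation 1. TSPYL1 lies within DSE, on the opposite strand, which averaged 60.9 ± 2.87 CPM with mutation 1 and 34.4 ± 7.56 in wild type and so moved the other way.

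PURA and PURB bind purine-rich single-stranded nucleic acid. PURA averaged 47.7 ± 2.58, 37.8 ± 2.12 and 44.7 ± 1.78 CPM with mutations 1, 2 and 3, against 36.4 ± 1.93 CPM in wild type. PURB averaged 60.4 ± 4.44, 84.9 ± 3.92 and 65.7 ± 1.37 CPM, against 50.9 ± 7.83 CPM, and its call with mutation 1 (0.25 ± 0.1) was kept in only 1 of the 12 fits that each left out 1 library, the one without wild-type replicate 1. TAF7, a TFIID subunit, had 138 ± 0.75, 104 ± 3.61 and 140 ± 3.56 CPM, against 125 ± 21.4 CPM in wild type. Of 12 other TFIID subunits tested, 4 were called higher and 3 lower with mutation 1. ZXDA and ZXDB, zinc finger paralogs on the X chromosome so alike that reads can map to both, are uncertain, since reads under a mapping quality of 10 were not counted. They had 3.65 ± 0.492 and 16.9 ± 2.5 CPM with mutation 1 and 2.36 ± 0.267 and 17.2 ± 4.49 CPM in wild type.

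Of the glycan enzymes and remaining members, 1 of 7 tested was higher and 5 were lower with mutation 1. CHMP1B, an ESCRT-III subunit (chr18:11851396-11854449, plus strand), had 83.1, 77.3 and 80.6 CPM with mutation 1, 33.2, 35.2 and 30.9 with mutation 2 and 62.3, 63.6 and 62.3 with mutation 3, against 41.4, 24.2 and 24.1 CPM in wild type. Mutations 1 and 3 lay above all wild-type libraries (1.43 ± 0.17 and 1.07 ± 0.17), and mutation 2 lay between wild-type replicate 1 and replicates 2 and 3. Its spliced paralog CHMP1A went the other way, with 68.4 ± 2.68, 92.8 ± 1.58 and 114 ± 2.07 CPM with mutations 1, 2 and 3, against 142 ± 19.8 CPM in wild type.

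PIGM and B3GALT6 were low with mutations 1 and 3 alike. PIGM, the first mannosyltransferase of glycosylphosphatidylinositol anchors, had 1.9, 2.48 and 1.92 CPM with mutation 1, 6.83, 6.81 and 6.37 with mutation 2 and 1.82, 1.63 and 1.56 with mutation 3, against 5.84, 9.55 and 10.9 CPM in wild type. B3GALT6, a galactosyltransferase of the glycosaminoglycan linker, had 11.5, 12.2 and 12.8 CPM with mutation 1, 32.2, 35.4 and 37.7 with mutation 2 and 13.4, 13.1 and 12.8 with mutation 3, against 49.5, 39.8 and 36.4 CPM in wild type. For both genes the libraries of mutations 1 and 3 lay below all wild-type libraries while mutation 2 overlapped wild type. The log2 fold changes of PIGM were -2.05 ± 0.23 and -2.38 ± 0.23, and those of B3GALT6 -1.79 ± 0.12 and -1.67 ± 0.11.

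CHST14, a dermatan sulfotransferase, was lowest with mutation 3, at 22.1 ± 1.71, 38.9 ± 1.9 and 16.1 ± 0.377 CPM with mutations 1, 2 and 3, against 36.5 ± 5.62 CPM in wild type. DNAJC30, a mitochondrial J-domain protein, had 3.19 ± 0.29, 8.52 ± 0.712 and 3.84 ± 0.16 CPM, against 9.07 ± 1.26 CPM in wild type. DNAJC30 shares 359 bases with BUD23 on the opposite strand, which averaged 86.1 ± 1.1 CPM with mutation 1 and 57.8 ± 6.91 in wild type. SOWAHC, an ankyrin repeat protein, was highest with mutation 2, at 34.0 ± 1.8 CPM, with 14.3 ± 1.7 and 24.2 ± 1.43 CPM with mutations 1 and 3 and 15.9 ± 6.27 CPM in wild type. FEM1A, a substrate receptor of CUL2 ubiquitin ligases, had 2.95 ± 0.555 CPM with mutation 1 and 5.43 ± 1.8 in wild type, while its paralogs FEM1B (73.5 ± 0.283 and 36.8 ± 5.06 CPM) and FEM1C (70.5 ± 1.56 and 25.6 ± 2.44 CPM) were higher with mutation 1. Of 22 paralogs of members tested, 6 were called higher and 9 lower with mutation 1. RIOX2, THAP7, ATXN7L3 and TSPYL5 were lower (log2 fold change -0.77, -1.47, -0.69 and -2.94), as were RIOX1, THAP11, ATXN7L3B and TSPYL1. IRF2BP2 (0.9) and CHST11 (0.49) were higher, whereas IRF2BP1 and CHST14 were lower.

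**Figure D3:**
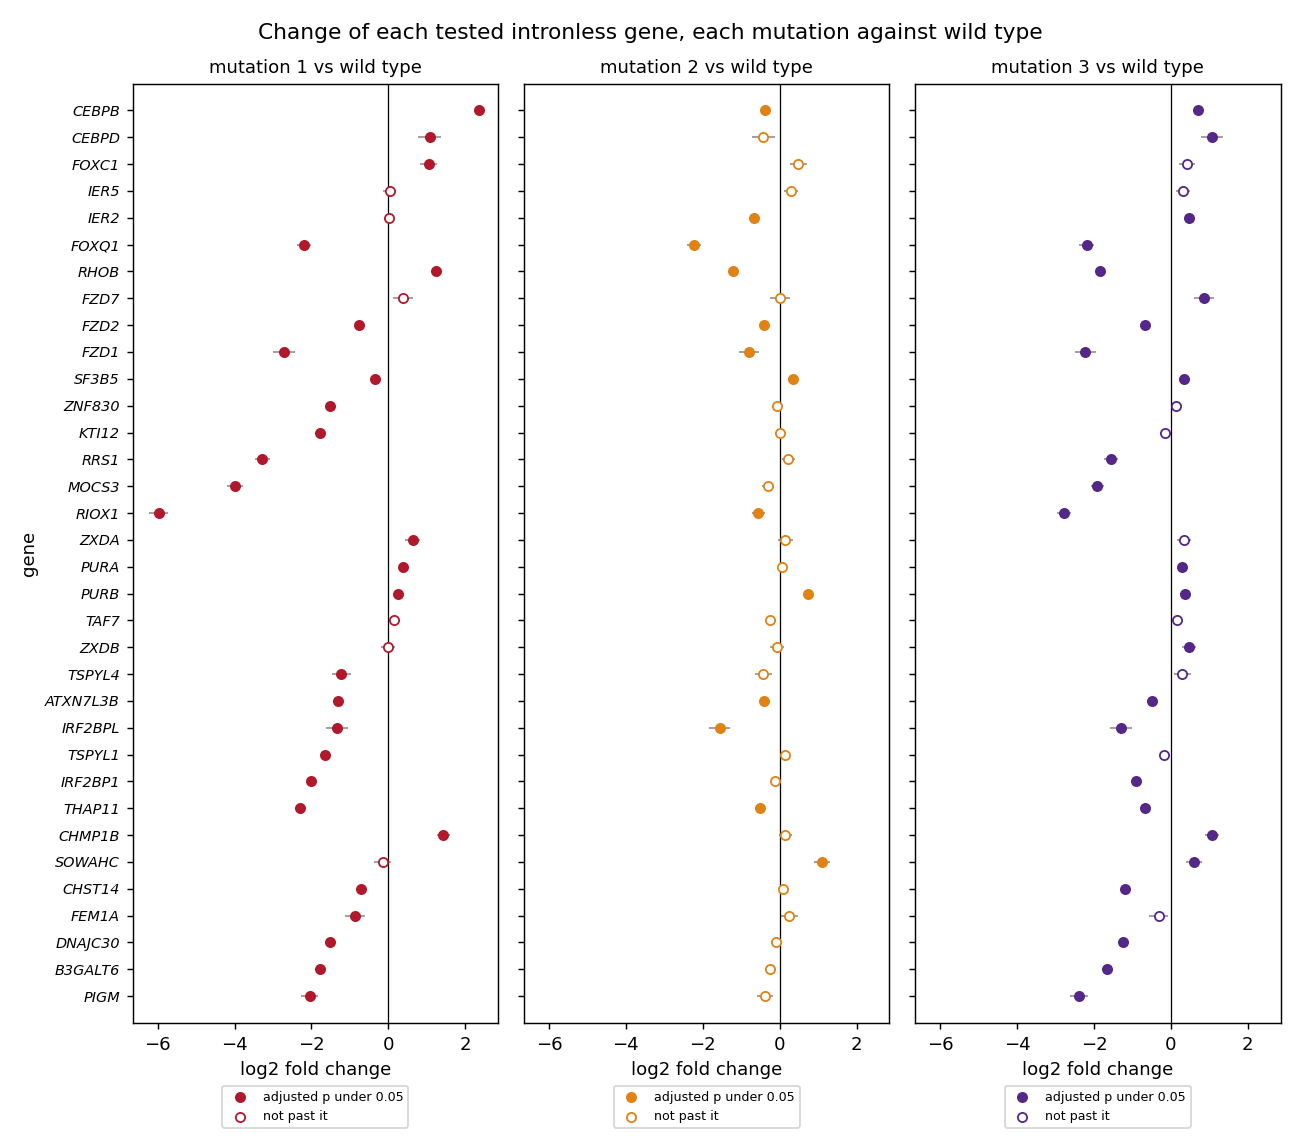
log2 fold change of 34 tested intronless genes against wild type for mutation 1, 2 and 3, with bars of 1 SE; filled points passed an adjusted p under 0.05 over all genes. FZD8, with 0 counts in the mutation 3 libraries, is left out because its fitted change has no fixed size. RIOX1 at -5.97 and CEBPB at 2.36 are the ends of the mutation 1 panel, and most mutation 2 points lie near 0.

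Genes outside the list were set beside the members. Which levels were in view when the list was drawn up is not recorded, so these genes are not independent support. Of 169 other unspliced protein-coding genes tested, 25 were called higher and 94 lower with mutation 1 than with wild type, with a median log2 fold change of -1.0. Leaving out histone genes, whose transcripts mostly lack a poly(A) tail, gave 22 higher and 93 lower of 157 and a median of -1.2. Of 11970 genes with several coding exons, 3962 were called higher and 4524 lower, with a median of -0.04. With mutation 2 the other unspliced genes had 11 higher and 36 lower and a median of -0.05, and with mutation 3 they had 26 higher and 70 lower and a median of -0.47. The tested members stand beside them with medians of -0.88, -0.11 and -0.18 for mutations 1, 2 and 3, and the 2 sets were not tested against each other. Without wild-type replicate 1 the other unspliced genes had 43 called higher and 103 lower of 175 with mutation 1 (median -0.80), and against replicate 1 alone 31 higher and 102 lower of 185 (median -0.81).

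Change with mutation 1 was graded by the largest number of exons in any protein-coding transcript of a gene. Among protein-coding genes other than the members, the median log2 fold change was -1.04 for 189 genes with 1 exon, -0.46 for 411 with 2, -0.24 for 1495 with 3 to 4, -0.12 for 3505 with 5 to 8, -0.05 for 4134 with 9 to 16 and 0.13 for 2780 with 17 or more. With mutation 3 the same classes had medians of -0.47, -0.35, -0.22, -0.11, -0.05 and 0.11. Mutation 2 had -0.16 for genes with 1 exon and 0.14 for those with 17 or more. Mutation 1 against mutation 2 had -0.76 for 1 exon, -0.32 for 2, and between -0.06 and -0.02 for all classes above. Without wild-type replicate 1 the 1-exon median with mutation 1 was -0.88 and that of 17 or more exons 0.10, and against replicate 1 alone they were -0.84 and 0.25. Median transcript length was 2248 bases for 1 exon, 2703 for 2, 2438 for 3 to 4 and 2702 for 5 to 8. It was 3384 for 9 to 16 and 5321 for 17 or more. Length was thus shortest at 1 exon and longest at 17 or more, and what part it has in the change was not tested. No fit separated exon number from length.

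**Figure D4:**
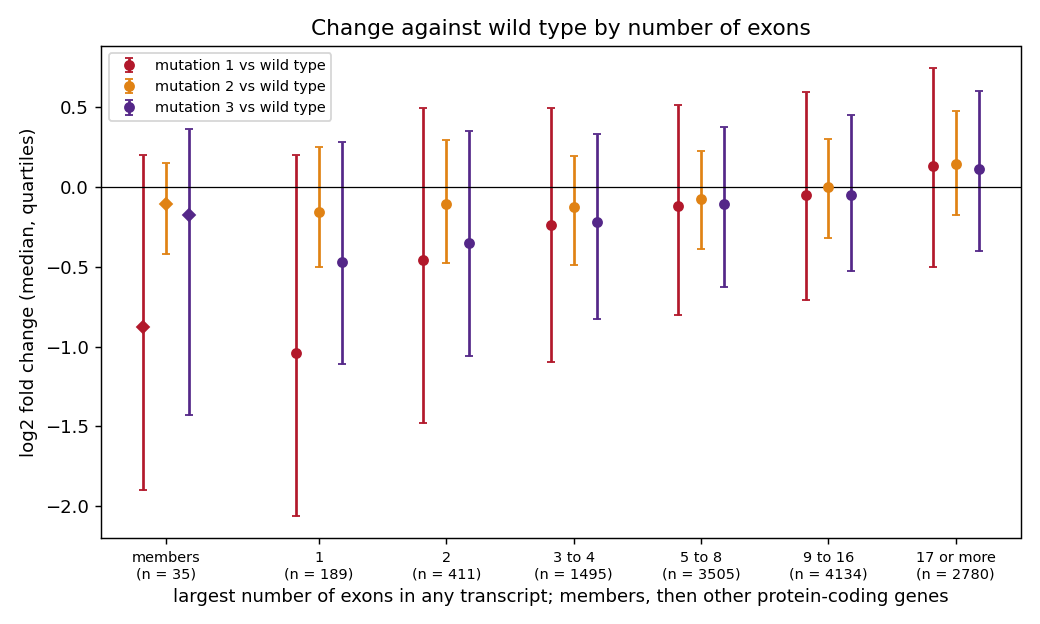
Median log2 fold change against wild type, with quartiles as bars, for mutation 1, 2 and 3. Diamonds are the 35 tested members. Circles are other protein-coding genes by the largest number of exons of any protein-coding transcript. Medians with mutation 1 run from -1.04 at 1 exon to 0.13 at 17 or more, and the members' median is -0.88.

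GC content differed between the classes and was examined within strata for genes outside the list. With mutation 1 the median log2 fold change of genes with 1 exon and of genes with 2 or more was -1.15 and -0.11 under 45% GC, -1.33 and -0.13 at 45 to 55%, -0.74 and 0.10 at 55 to 65%, and 0.13 and 0.21 at 65% or more. The medians of the classes were apart in the 3 lower strata and closer in the highest, which held 18 genes with 1 exon. With mutation 2 the pairs of medians were 0.01 and 0.03, -0.18 and -0.01, -0.26 and -0.07, and -0.07 and -0.06 in the same strata. With mutation 3 they were -0.3 and -0.06, -0.54 and -0.08, -0.61 and -0.03, and -0.03 and 0.01. What part GC content has in the change was not tested. The tested members ran from 36.4 to 70.0% GC with a median of 55.2%.

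By library, the median of the members' centred log2 levels was -0.49, -0.42 and -0.36 with mutation 1, 0.33, 0.21 and 0.25 with mutation 2 and 0.06, 0.04 and 0.06 with mutation 3, against 0.33, 0.41 and 0.39 in wild type. Other genes with 1 exon gave -0.47, -0.40 and -0.39 with mutation 1 and 0.29, 0.29 and 0.35 in wild type, and genes with 2 or more exons stayed between -0.01 and 0.04 in every library. For members, wild-type replicate 1 (0.33) was below the other wild-type libraries (0.41 and 0.39) and level with mutation 2 replicate 1 (0.33). For other genes with 1 exon it had 0.29, as wild-type replicate 2 did, and mutation 2 had 0.22 to 0.25. The mitochondrial share of wild-type replicate 1 was within the range of the mutation 1 libraries. What part RNA quality or the nuclear-retained RNAs have in the members' levels was not tested.

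**Figure D5:**
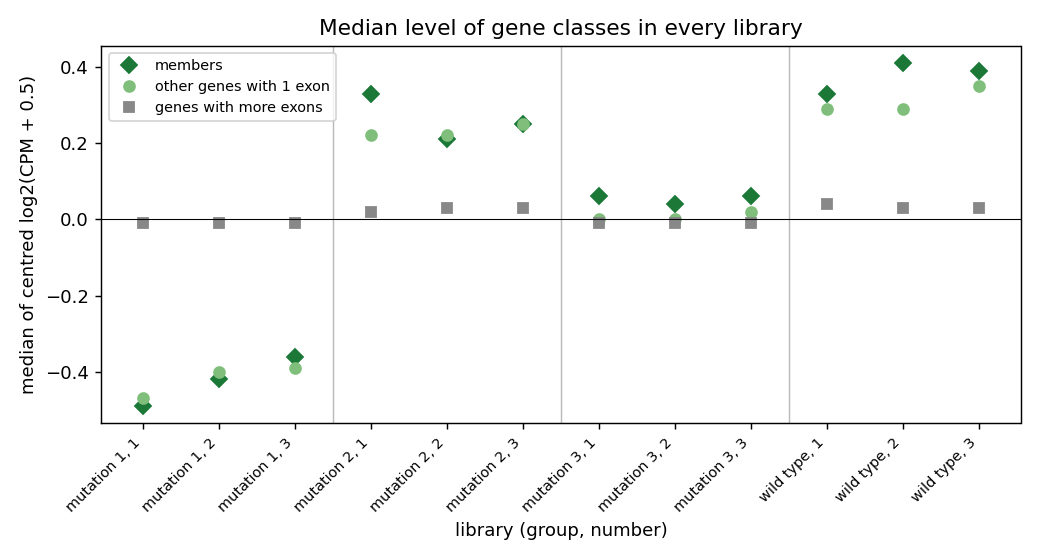
Median over genes of log2(CPM + 0.5), centred on each gene's mean, in every library for the tested members (diamonds), other protein-coding genes with 1 exon (circles) and genes with 2 or more exons (squares). Members and other 1-exon genes are lowest in the 3 mutation 1 libraries (-0.49 to -0.36 for members) and genes with more exons stay between -0.01 and 0.04.

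Factors that carry or survey mRNA were described beside the members. They come from lists set up with earlier results of these data known. Of 22 mRNA export factors tested, 3 were called higher and 13 lower with mutation 1 (median log2 fold change -0.38), 3 and 3 with mutation 2, and 3 and 12 with mutation 3. The share called was 72.7% with mutation 1 and 27.3% with mutation 2, beside 69.0% and 37.0% of all genes tested. CHTOP, an export adaptor, had 43.8 ± 2.23 CPM with mutation 1 and 99.8 ± 8.71 in wild type, and ALYREF had 104 ± 1.54 and 157 ± 15.4 CPM. Of 17 factors of mRNA 3′ end processing, 3 were called higher and 10 lower with mutation 1, among them CPSF6 (43.0 ± 2.37 CPM with mutation 1 and 92.7 ± 2.54 in wild type). Of 16 exon junction and nonsense-mediated decay factors, 3 were called higher and 10 lower, among them MAGOHB (5.85 ± 0.536 and 23.2 ± 2.69 CPM). The 9 other subunits of the U2 snRNP's SF3A and SF3B complexes divided, 5 higher and 4 lower, with SF3B1 at 600 ± 10.5 CPM with mutation 1 and 240 ± 19.1 in wild type and SF3B4 at 29.1 ± 1.27 and 136 ± 16 CPM.

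Counting without strand cannot tell apart reads from bases that a member shares with a gene on the opposite strand. Where the strand is the same, as for KTI12 and TXNDC12, using strand would not tell them apart either. In all, 18 members share exonic bases with another annotated gene, 7 of them with a gene that was itself tested, and 7 members lie inside another protein-coding gene. Among tested genes that share exonic bases with a member called lower with mutation 1, DSE and BUD23 were higher and TXNDC12 and CENPT were not called. AC007686.3, which shares 614 bases with IRF2BPL on the opposite strand, had at most 0.806 CPM in any library. AL445685.3, which shares 663 bases with KTI12 on the same strand, was not among the IDs counted. What part the overlaps have in the members' levels was not tested.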

How the data were processed

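RNA of MDA-MB-231 cells transfected with plasmids for mutant or wild-type Dicer was sequenced as 12 libraries, 3 in each of 4 groups, after poly(A) selection per the labels' protocols. The authors deposited read-pair counts per gene for each library, not normalized. Per the file headers, featureCounts 2.0.6 summed exons by gene ID on an Ensembl annotation of hg38, ignoring strand and dropping reads under a mapping quality of 10. Per the submitters' processing notes, the tools were STAR, SAMtools, DESeq2, cutadapt 1.9.1 and FastQC 0.11.8. Versions of the first 3 are not given in the sources used here.

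Counts were analysed with edgeR 4.0.16 in R 4.3.3: filterByExpr (minimum count 10, minimum total 15) kept 15094 genes, libraries were scaled by TMM, and 1 quasi-likelihood fit of the 4 groups, with 8 residual degrees of freedom, gave Benjamini-Hochberg adjusted p-values over all genes tested. A gene was called at an adjusted p under 0.05. The SE of a log2 fold change is its size over the square root of the F statistic and is approximate. Intervals at 95% and floors of 3 counts cover counting error only. The fit was also run on simulated data, which held no library set apart from its group as wild-type replicate 1 is. That run therefore does not bear on calls that change with replicate 1. The spread in CPM is the SD of 3 libraries. Symbols came from the reference tables for 56105 IDs (87.3%), gene structure from GENCODE v29, whose IDs matched 56591 of those counted, and start regions from RefSeq. The members, gene lists and tests were chosen with earlier results of these data known. All members could be named, and of other genes those that are paralogs of members or overlap them, up to 4 of each list with the lowest adjusted p in a comparison with wild type, and markers. Alternatives were DESeq2 1.42.0, other scalings and filters, fits of 2 groups and fits leaving out libraries.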

Additional observations from a re-analysis of the deposited data

How the results depend on the processing

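Of 210 member results (35 genes in 6 comparisons), 139 were called. DESeq2 kept 137, DESeq2's size factors in edgeR 137, upper-quartile scaling 135, a stricter filter 136, no filter 129 and fits of the 2 groups alone 125; leaving out 1 library kept 123 to 139. Counts that moved by over 1.5 times were the following. Against wild type, members called higher with mutation 2 (3) were 5 against wild-type replicate 1 alone and 2 to 10 when 1 library was left out, 10 without wild-type replicate 1. Members called lower with mutation 2 (10) were 6 in the 2-group fit and 7 to 17 leaving out 1 library, 17 without wild-type replicate 1. Members called higher with mutation 3 (10) were 4 in the 2-group fit and 5 to 13 leaving out 1 library, with 5, 6 and 6 without mutation 3 replicates 1, 2 and 3. Members lower in mutation 2 than in mutation 3 (9) were 5 to 11, with 5 without mutation 2 replicate 3 or mutation 3 replicate 3. Over all genes, those higher with mutation 2 than in wild type (2555) were 4152 against replicate 1 alone, 1223 in the 2-group fit and 1887 to 5213 leaving out 1 library. Those lower (3033) were 1366 in the 2-group fit and 2304 to 5513. Genes higher with mutation 1 than with mutation 3 (3053) were 5241 with wild-type replicate 1 as the sole wild-type library, 4979 in the 2-group fit and 2437 to 5208, and genes lower (3401) were 5330 with that library alone and 2651 to 5313. The highest of each range over all genes was without wild-type replicate 1. Among the called member results, 2 turned sign against that replicate alone, FZD1 to 0.18 and ATXN7L3B to 0.02, both with mutation 2. Members not called with mutation 2 also turned sign there, among them IER5 (-0.19), CHMP1B (-0.33) and ZXDB (0.42). The fits of 2 groups and those leaving out a library hold fewer samples; beyond that the cause was not tested. The members' median with mutation 1 (-0.88) was -0.84 under DESeq2, -0.93 under upper-quartile scaling and -1.10 without wild-type replicate 1. No paired analysis was possible because the mutant labels carry no replicate numbers.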
